A study of Mus musculus with 48 samples.

Results

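Gas5 and Snhg6 are host genes of small nucleolar RNAs, and they were read here by 5 of the 12422 probe sets tested on a mouse expression array. They were taken as every probe set whose platform symbol was Gas5 (3 probe sets) or Snhg6 (2 probe sets), 2 of the 8251 genes that the platform names. Both genes were selected on their measured strain difference, the signal in A/J against that in C57BL/6J, in earlier results of these data. The strain difference of these probe sets is therefore given as a description, with no test. Differences between times and between tissues did not enter the choice and were tested. The choice rested on the strain difference averaged over both times. Its change with time is a separate contrast and was tested too, but on the same arrays that gave the choice. The p-values of that change therefore do not come from data independent of the choice.

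The study hybridised 48 Affymetrix MG-U74Av2 arrays with RNA of 4 tissues (liver, heart, spleen, lung), 3 arrays in each of 16 groups. The groups were A/J at time 2, A/J at time 1, C57BL/6J at time 2 and C57BL/6J at time 1, each in every tissue. A/J and C57BL/6J are inbred laboratory strains, and the labels name no treatment. The mice were males of 3 months that the labels call littermates and biological replicates, and about 20 micrograms of total RNA went into each target. The labels do not say what separates time 1 and time 2. Nor do they say how many litters were used or whether a mouse gave several tissues, so the p-values measure the spread between these animals. The names of the scanned files fall into 4 array runs. Liver and lung at time 1 shared a run, spleen and heart at time 1 each had their own, and all tissues of time 2 shared the last. Time and array run therefore cannot be told apart within a tissue, whereas both strains shared a run in every tissue and time.

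The labelled tissues carried their markers. The mean of 4 liver genes lay between 13.11 and 13.78 on the log2 scale in livers and reached at most 11.63 in other tissues. The mean of 5 heart genes was 13.24 to 13.97 in hearts, that of 4 B cell genes 12.31 to 13.14 in spleens, and that of 4 lung genes 14.24 to 14.42 in lungs. Some arrays stood apart. In 5 spleens (A/J time 1 replicates 1 and 3, C57BL/6J time 1 replicate 2, C57BL/6J time 2 replicates 1 and 3) and 1 liver (C57BL/6J time 2 replicate 2) the mean of 6 exocrine pancreas genes exceeded 11, up to 13.12. In 2 A/J hearts of time 1 (replicates 1 and 3) the Gapdh control probe set for the 3′ end was brighter than that for the 5′ end by 1.104 and 1.205 (log2), and in 1 A/J lung of time 2 (replicate 1) by 1.174. Liver genes stood high in the A/J lungs of time 1 (11.2 to 11.63, against 9.75 to 11.04 in the C57BL/6J lungs of that time) and in the A/J spleens of time 2 (10.46 to 11.3, against 8.96 to 9.97 in C57BL/6J). Lung genes stood higher in the C57BL/6J hearts of time 1 (10.88 to 11.82) than in the A/J hearts of that time (10.02 to 10.66). At time 2 they averaged 9.68 to 10.96 in C57BL/6J hearts and 9.73 to 9.96 in A/J hearts. Their part in the heart strain differences was not tested. Without the arrays high in pancreas genes, A/J spleen of time 1 and C57BL/6J spleen of time 2 kept 1 array each. Without the 2 uneven hearts, A/J heart of time 1 kept 1. Such a fit takes its spread from the other groups and assumes that the lone array varies like them, so a call lost or kept there says little.

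A small nucleolar RNA host gene is transcribed as a longer RNA whose introns hold small nucleolar RNAs. These small RNAs guide the chemical modification of ribosomal RNA in the nucleolus, mostly as partners of fibrillarin or dyskerin complexes. The spliced exons of Gas5 and of several other hosts code for no long protein, and the spliced RNA is degraded by nonsense-mediated decay when it is translated. Gas5 (growth arrest specific 5) was isolated from growth-arrested mouse fibroblasts, belongs to the genes with a 5′ terminal oligopyrimidine tract, whose RNAs are held back from ribosomes when growth stops, and its RNA can bind the glucocorticoid receptor. Snhg6 hosts the box C/D small nucleolar RNA Snord87. In the RefSeq gene table (assembly GRCm38.p6), both genes lie on chromosome 1. There 8 small nucleolar RNA genes lie inside Gas5, which also overlaps Zbtb37, and 1 lies inside Snhg6, which overlaps Mcmdc2. Whether the probes of any probe set fall in introns, in spliced exons or in an overlapping gene was not tested, since no probe sequences were used here.

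The promoter of Gas5 is shown because it holds a pyrimidine tract at the start, the feature of this gene named above. It is that of the second start that the RefSeq promoter table (GRCm38.p6) lists, chr1:161034916-161035215 on the plus strand. The sequence runs from 250 bases before the start to 50 bases from it on. Capitals mark, in order, the palindrome TGACGTCA (the cyclic AMP response element), the letters TATATA, and the pyrimidine tract at the start.
Gas5 promoter: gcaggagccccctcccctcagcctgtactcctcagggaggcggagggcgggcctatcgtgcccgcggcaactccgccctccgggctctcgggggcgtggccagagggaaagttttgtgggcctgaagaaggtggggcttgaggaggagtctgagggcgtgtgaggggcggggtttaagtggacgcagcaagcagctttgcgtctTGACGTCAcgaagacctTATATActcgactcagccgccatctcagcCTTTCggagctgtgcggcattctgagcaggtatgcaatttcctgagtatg
The element TGACGTCA lay 46 to 39 bases before the start, and 1.79% of the 32851 promoter windows in the table hold it. TATATA lay 29 to 24 bases before the start, and 5.67% of the windows hold it. Both motifs read the same on either strand. The tract was defined as a C at the start followed by at least 4 bases that are C or T, read on the gene's own strand, and 2.51% of all windows matched. Among the 33 windows of 31 snoRNA host genes 5 matched, or 15.2%, in Gas5, Rack1, Rcc1, Snhg7 and Snhg8. The Gas5 match was that of the second start, and the window of the first listed start did not match. The promoter table has no entry for Snhg6. For comparison, the windows from 20 bases before the start to 30 bases from it on are shown for Gas5 and for the noncoding hosts Snhg1 (chr19:8723467-8723516, plus strand) and Snhg5 (chr9:88522868-88522917, minus strand), whose signals are set beside Gas5 below. The window of Gas5 (chr1:161035146-161035195, plus strand) has its tract in capitals.
Gas5 start: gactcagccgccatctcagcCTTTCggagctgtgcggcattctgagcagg
Snhg1 start: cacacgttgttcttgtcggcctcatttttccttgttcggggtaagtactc
Snhg5 start: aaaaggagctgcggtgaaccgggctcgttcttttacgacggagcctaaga
A match in letters is a description of these windows and not evidence of a bound factor.

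Of the 3 Gas5 probe sets, 98531_g_at was the bright one. Its log2 signal ranged between 7.66 and 9.21 in the 24 A/J arrays, with a median of 8.28. In the 24 C57BL/6J arrays it ranged between 10.57 and 12.65, with a median of 11.29. Every A/J array thus lay below every C57BL/6J array, whatever the tissue, by at least the gap between 9.21 and 10.57. In livers of time 2 the values were 8.35, 8.10 and 8.03 in A/J, against 11.63, 11.62 and 11.78 in C57BL/6J. In livers of time 1 they were 8.55, 8.43 and 8.49 in A/J, against 10.99, 10.79 and 11.24 in C57BL/6J. The liver pairs stood wider apart at time 2, with a difference (A/J minus C57BL/6J) of -3.51, than at time 1, with -2.52. In hearts of time 2 the values were 8.0, 8.02 and 7.66 in A/J, against 10.76, 10.84 and 10.57 in C57BL/6J. In hearts of time 1 they were 8.10, 7.92 and 8.17 in A/J, against 10.65, 10.86 and 10.72 in C57BL/6J. Heart held the lowest C57BL/6J values of this probe set, and the differences there were -2.83 at time 2 and -2.68 at time 1.

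Spleens gave the highest values of 98531_g_at. At time 2 they were 8.28, 9.17 and 9.21 in A/J, against 12.19, 12.37 and 12.65 in C57BL/6J. At time 1 they were 8.28, 8.50 and 9.11 in A/J, against 11.88, 12.08 and 12.22 in C57BL/6J. The spleen differences were -3.52 at time 2 and -3.43 at time 1, and the A/J spleens scattered more (SD 0.52 and 0.43, n = 3 each) than the C57BL/6J spleens (SD 0.23 and 0.17). In lungs of time 2 the values were 8.98, 8.25 and 8.38 in A/J, against 11.65, 11.02 and 11.34 in C57BL/6J. In lungs of time 1 they were 8.51, 8.19 and 7.87 in A/J, against 11.74, 11.09 and 11.11 in C57BL/6J. The lung differences were -2.80 at time 2 and -3.12 at time 1, and replicate 1 was the highest lung array in each strain and time. Over the 8 tissue and time pairs the A/J signal was 5.72-fold to 11.46-fold lower. Ranked over all 12422 probe sets from the most negative strain difference, 98531_g_at stood between rank 1 and rank 5 in each pair. In bulk tissue, fewer cells of a type and less RNA per cell cannot be told apart. Whether the sequence under the probes of either gene differs between the strains was not tested, since no probe sequences were used.

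Snhg6 was read brightly by 96156_at. Its log2 signal ranged between 8.10 and 9.04 in A/J (median 8.47, n = 24), and between 9.58 and 10.81 in C57BL/6J (median 10.29, n = 24), again with no overlap over any tissue. In livers of time 2 the values were 8.41, 8.36 and 8.40 in A/J, against 10.47, 10.42 and 10.69 in C57BL/6J. In livers of time 1 they were 8.84, 9.0 and 9.04 in A/J, against 10.26, 9.92 and 10.15 in C57BL/6J. As for Gas5, the liver strains lay farther apart at time 2 (-2.14) than at time 1 (-1.15). In hearts of time 2 the values were 8.21, 8.10 and 8.13 in A/J, against 10.37, 10.36 and 10.32 in C57BL/6J. In hearts of time 1 they were 8.81, 8.70 and 8.74 in A/J, against 10.53, 10.61 and 10.22 in C57BL/6J. The heart differences were -2.21 at time 2 and -1.70 at time 1, with an SD of 0.06 in A/J at both times (n = 3 each).

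In spleens of time 2, 96156_at had 8.30, 8.30 and 8.43 in A/J, against 10.35, 10.13 and 10.81 in C57BL/6J. In spleens of time 1 it had 8.86, 8.78 and 8.88 in A/J, against 10.17, 10.39 and 10.48 in C57BL/6J. The spleen differences were -2.09 at time 2 and -1.51 at time 1. In lungs of time 2 the values were 8.35, 8.35 and 8.12 in A/J, against 9.77, 9.61 and 9.58 in C57BL/6J. In lungs of time 1 they were 8.55, 8.50 and 8.59 in A/J, against 9.95, 9.84 and 9.95 in C57BL/6J. Lung held the lowest C57BL/6J values of Snhg6, and its differences were -1.38 at time 2 and -1.37 at time 1. The A/J signal was 2.22-fold to 4.61-fold lower over the 8 pairs, and the probe set ranked between 3 and 29 from the most negative strain difference.

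**Figure D1:**
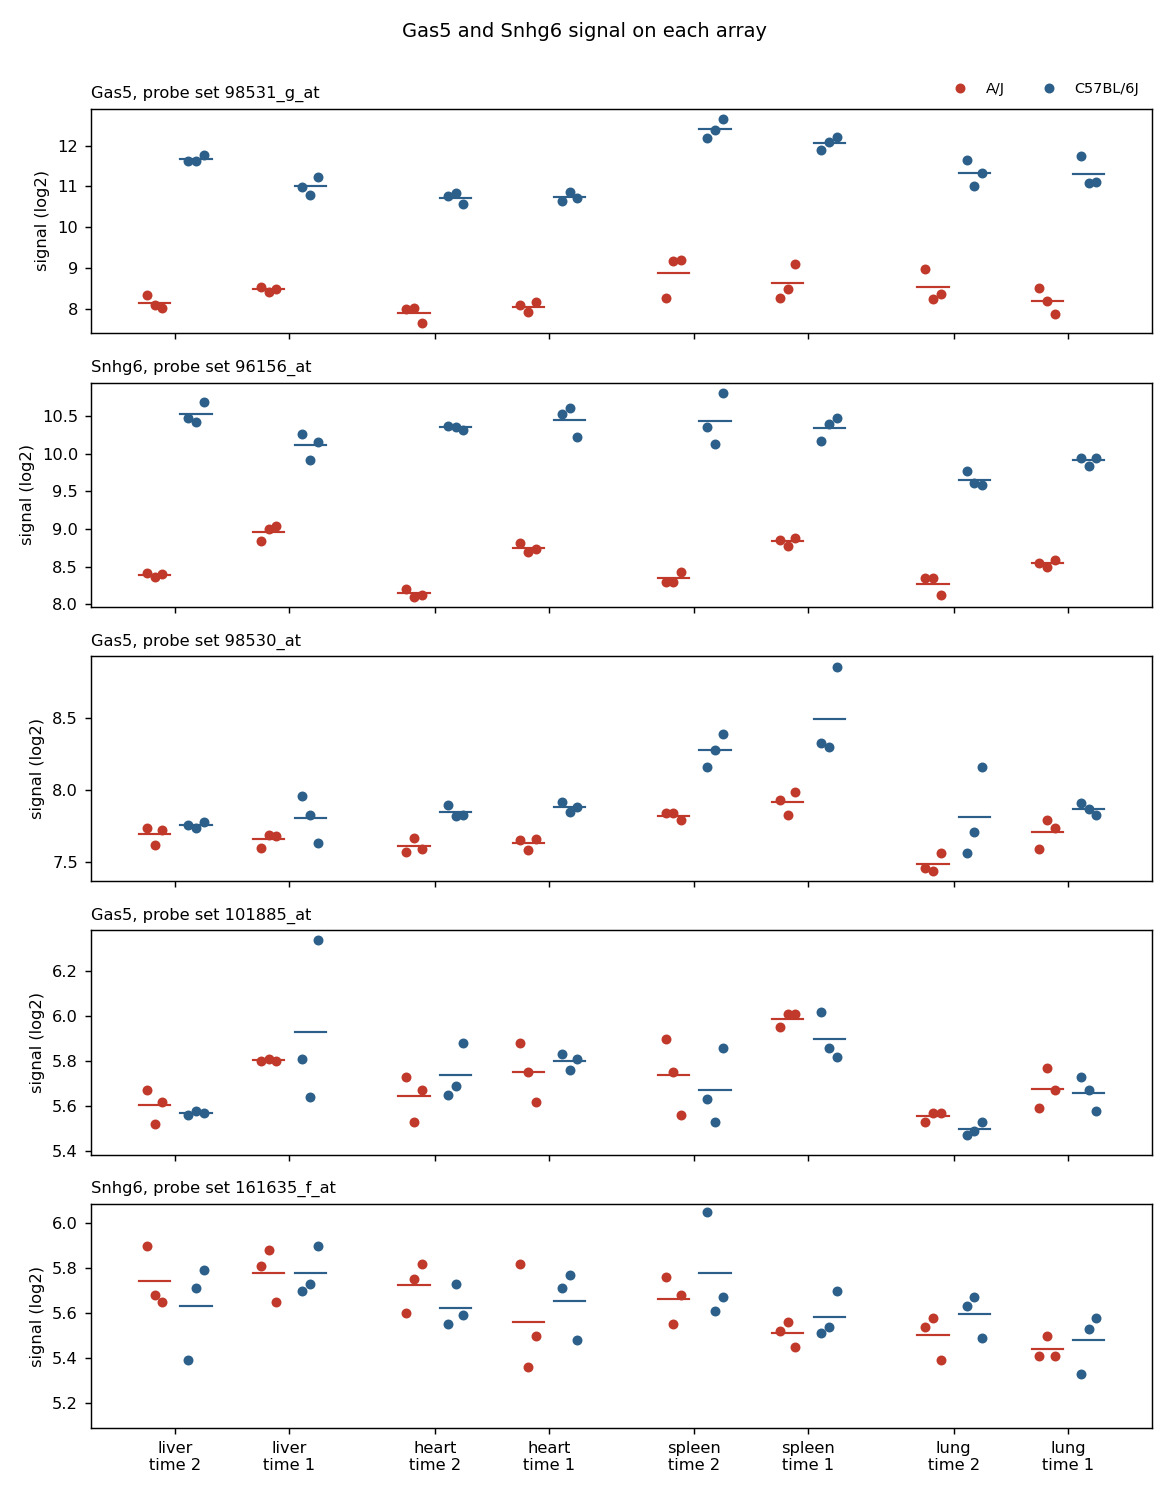
Log2 signal (vertical axis, each panel with its own range) of the 5 probe sets on every array, by tissue and time (horizontal axis), with A/J in red left of C57BL/6J in blue, points for arrays and lines for means of 3. In the 2 upper panels every A/J point lies below every C57BL/6J point, and in the 2 lower panels the strains overlap throughout.

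The remaining probe sets did not share this separation. Gas5 98530_at, to which the platform table assigns the same source clone as 98531_g_at, ranged between 7.44 and 7.99 in A/J (median 7.67) and between 7.56 and 8.86 in C57BL/6J (median 7.88). Its mean was lower in A/J in 8 of 8 pairs, by -0.07 to -0.58, and the arrays of the strains did not overlap in 6 of 8. In spleens of time 2 it had 7.84, 7.84 and 7.79 in A/J, against 8.16, 8.28 and 8.39 in C57BL/6J. In livers of time 2 it had 7.74, 7.62 and 7.72 in A/J, against 7.76, 7.74 and 7.78 in C57BL/6J. So 98530_at separated the strains in spleen, by gaps of 0.32 at time 2 and 0.31 at time 1, and in heart, by 0.15 and 0.19. In lung the gap was 0.04 at time 1, and at time 2 the ranges met at 7.56 and were apart only before rounding. In liver the ranges overlapped at both times. Gas5 101885_at and Snhg6 161635_f_at were dim, at 5.47 to 6.34 and 5.33 to 6.05 over all 48 arrays, where the lowest 5% of all values end at 5.71. Their strain differences lay between -0.13 and 0.11 and the strains overlapped in 8 of 8 pairs for each. These dim readings set no limit on a difference of the RNA itself. Over all probe sets the arrays of the strains did not overlap for 18.9% (liver, time 1) to 33.2% (liver, time 2), and A/J lay wholly below C57BL/6J for 9.03% (heart, time 2) to 16.4% (spleen, time 2). Since the strain contrast chose the members, nothing is read from these counts. One probe set's level is not set against another's here, because each has its own probes.

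**Figure D2:**
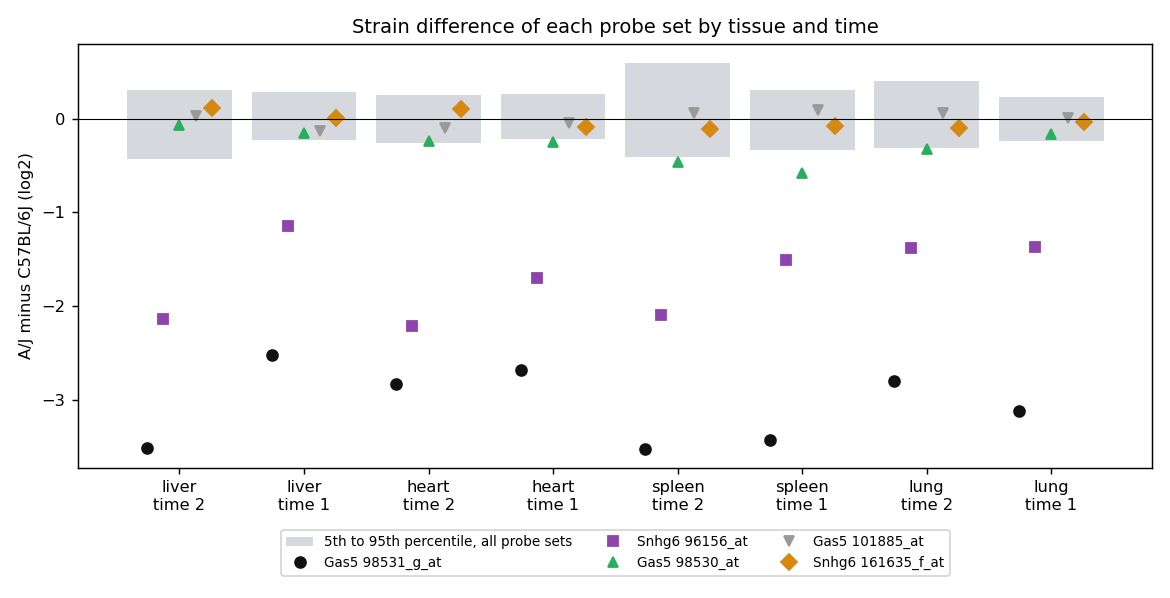
Strain difference of group means (vertical axis, A/J minus C57BL/6J, log2) of the 5 probe sets by tissue and time (horizontal axis), over grey boxes that span the 5th to 95th percentile of all 12422 probe sets. Gas5 98531_g_at lies between -2.52 and -3.52 and Snhg6 96156_at between -1.15 and -2.21, below the box in each pair, and the 2 dim probe sets lie inside every box.

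The order of the groups within a strain differed between the genes. For Gas5 98531_g_at in A/J the order began with spleen (8.89 at time 2 and 8.63 at time 1) and ended with heart at time 1 (8.06) and time 2 (7.89). In C57BL/6J the means were 12.41 and 12.06 in spleen at time 2 and time 1, 11.68 in liver at time 2, 11.33 and 11.31 in lung, 11.01 in liver at time 1, and 10.72 and 10.74 in heart. Neighbours in this order overlapped in their arrays, except that C57BL/6J spleen of time 1 stood clear of C57BL/6J liver of time 2, and C57BL/6J heart clear of A/J spleen. For Snhg6 96156_at the first 4 places in A/J were the time 1 groups of liver (8.96), spleen (8.84), heart (8.75) and lung (8.55), followed by the time 2 groups of liver (8.39), spleen (8.34), lung (8.27) and heart (8.14). Lung of time 1 overlapped with neither of its neighbours in this order. In C57BL/6J the order of Snhg6 began with liver at time 2 (10.53) and ended with lung at time 1 (9.91) and then lung at time 2 (9.66), whose arrays did not overlap.

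Tissue pairs were tested at time 2, where all tissues shared an array run, with limma's moderated test and Benjamini-Hochberg adjustment over all 12422 probe sets (called at an adjusted p below 0.05). Gas5 98531_g_at was called in 8 of 12 pairs, Snhg6 96156_at in 3, Gas5 98530_at in 4 and Gas5 101885_at in 1, which makes 16 of 60 tests over the 5 probe sets. In A/J, the share of all probe sets called was 44.0% for liver minus heart, 59.6% for liver minus spleen, 65.4% for liver minus lung, 60.7% for heart minus spleen, 63.4% for heart minus lung and 43.8% for spleen minus lung. In C57BL/6J it was 48.2%, 48.5%, 49.1%, 53.4%, 47.7% and 40.1% for the same pairs. A call between tissues was thus common for any probe set, and the members' 16 of 60 lay below these shares.

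Gas5 98531_g_at was higher in spleen than in heart in both strains. Heart minus spleen was -0.99 in A/J (SE 0.21, adjusted p 0.000271) and -1.68 in C57BL/6J (SE 0.21, adjusted p 2.99e-07), a 3.21-fold difference in C57BL/6J. Liver minus spleen was -0.72 in A/J (adjusted p 0.00493) and -0.73 in C57BL/6J (adjusted p 0.0053). Without the arrays high in pancreas genes, which leaves 1 C57BL/6J spleen of time 2, the C57BL/6J value was -0.666 with an adjusted p of 0.109. Spleen minus lung was 0.35 in A/J (SE 0.21, adjusted p 0.192) and 1.07 in C57BL/6J (SE 0.21, adjusted p 0.000189). Liver minus heart was 0.27 in A/J (adjusted p 0.322) and 0.96 in C57BL/6J (adjusted p 0.000525). Whether these tissue differences themselves differed between strains was not tested. Heart minus lung was -0.65 in A/J (adjusted p 0.0104) and -0.61 in C57BL/6J (adjusted p 0.0184). Both heart minus lung calls hung on single arrays. The A/J call was lost without lung replicate 1 of time 2, the lung with uneven Gapdh (-0.425, adjusted p 0.0955), or heart replicate 3 of time 2 (-0.528, adjusted p 0.0568). The C57BL/6J call was lost without lung replicate 1 of time 2 (-0.455, adjusted p 0.117) or heart replicate 3 of time 2 (-0.538, adjusted p 0.0733).

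In A/J the 6 tissue pairs of Snhg6 96156_at lay between -0.20 and 0.25, with no limma call. Their lowest adjusted p was 0.0949 (liver minus heart), and 1 had an unadjusted p below 0.05. In C57BL/6J lung stood apart from the other tissues. Liver minus lung was 0.87 (SE 0.12, adjusted p 1.01e-06), heart minus lung 0.69 (SE 0.12, adjusted p 3.06e-05) and spleen minus lung 0.78 (SE 0.12, adjusted p 7.67e-06), so lung was the lowest of the tissues. Without the arrays high in pancreas genes, with 1 C57BL/6J spleen left, spleen minus lung was 0.475 with an adjusted p of 0.00346. At time 1, where liver and lung also shared a run, liver minus lung was 0.196 with an adjusted p of 0.0551. The second Gas5 probe set 98530_at had a spleen minus lung difference of 0.34 in A/J. In C57BL/6J it was highest in spleen: liver minus spleen was -0.52, heart minus spleen -0.43 and spleen minus lung 0.47. Both Gas5 probe sets of the same source clone thus had their C57BL/6J maximum in spleen. The heart minus lung call of the dim 101885_at in C57BL/6J (0.25, adjusted p 0.0304) was lost under quantile normalization (0.192, adjusted p 0.1). It was also lost without C57BL/6J heart replicate 3 (0.176, adjusted p 0.166), lung replicate 1 (0.231, adjusted p 0.082) or lung replicate 2 (0.244, adjusted p 0.0566), all of time 2.

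**Figure D3:**
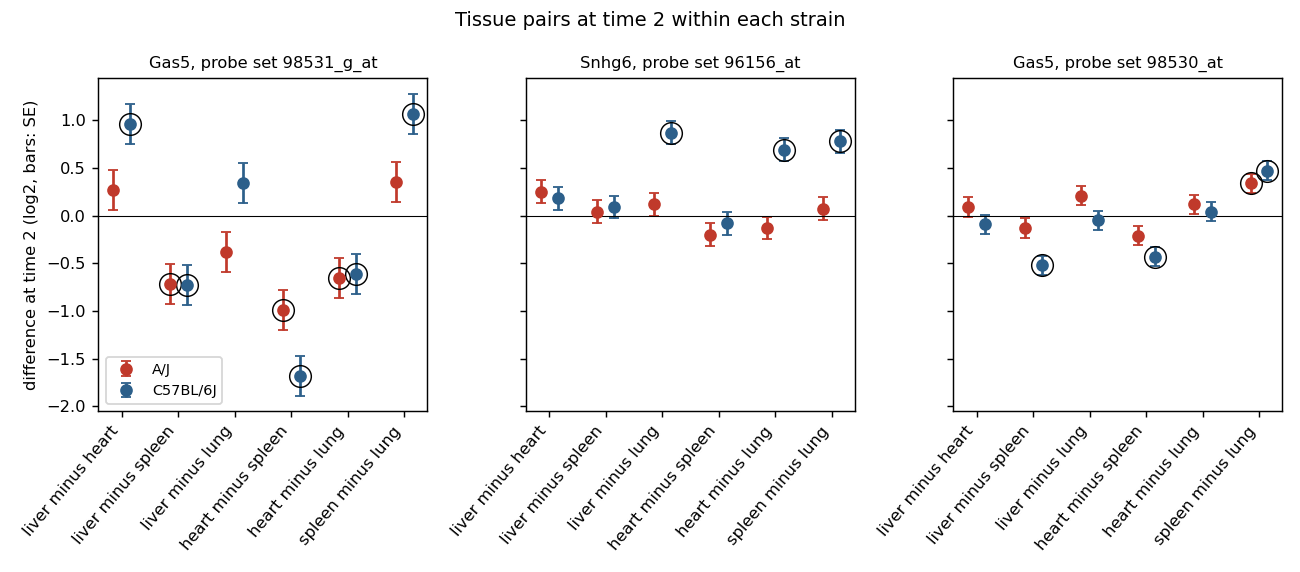
Difference between tissues at time 2 (vertical axis, first minus second, log2, bars show the SE of the fit) for the 6 pairs (horizontal axis) and 3 probe sets, with A/J in red left of C57BL/6J in blue and rings around values called at an adjusted p below 0.05. Gas5 98531_g_at spans -1.68 to 1.07, and Snhg6 96156_at is ringed in the 3 C57BL/6J pairs with lung.

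Spleen, where Gas5 was highest, also had the highest signal of dividing and red cell markers. The mean of 8 dividing cell genes was 9.65 to 10.93 in spleens and 8.97 to 9.36 in the other tissues, and that of 5 erythroid genes 9.41 to 12.06 in spleens and 8.87 to 9.65 elsewhere. Within spleen of time 2 these markers were higher in A/J, where Gas5 was lower. Dividing cell genes averaged 10.56 to 10.93 in A/J and 9.65 to 9.74 in C57BL/6J, and erythroid genes 11.72 to 12.06 in A/J and 9.41 to 9.85 in C57BL/6J. The part of these cells in the tissue and strain differences was not tested. Other snoRNA hosts were read for the same pairs, in 24 probe sets of 19 further host genes. Liver minus spleen at time 2 was called negative in 16 and positive in 2 in A/J (median -0.58), where 27.9% of all probe sets were called negative and 31.7% positive. In C57BL/6J it was negative in 15 and positive in 4 (median -0.38), beside 28.1% and 20.4% of all probe sets. Heart minus spleen was called negative in 13 and positive in 3 in A/J, beside 26.4% and 34.3%, and negative in 13 and positive in 6 in C57BL/6J, beside 25.9% and 27.5%. Spleen minus lung was called positive in 15 and negative in 3 in A/J, beside 23.1% and 20.7%, and positive in 11 and negative in 3 in C57BL/6J, beside 21.0% and 19.1%. Heart minus lung was mixed, with 6 positive and 6 negative in A/J, beside 36.9% and 26.5% of all probe sets. In C57BL/6J 5 were positive and 6 negative, beside 23.6% and 24.1%. Liver minus lung was called positive in 3 and negative in 13 in A/J, beside 36.5% and 28.8%. In C57BL/6J it was positive in 3 and negative in 5, beside 21.3% and 27.8%. Snhg1, the host of several box C/D small nucleolar RNAs, had a heart minus spleen difference of -2.11 in A/J (adjusted p 4.22e-11) and -1.43 in C57BL/6J (adjusted p 3.54e-08). Snhg5 had -1.88 in A/J (adjusted p 5.5e-09) and -1.18 in C57BL/6J (adjusted p 8.32e-06). Hspa9, a mitochondrial chaperone that also hosts a small nucleolar RNA, went the other way, with 1.96 in A/J and 2.13 in C57BL/6J. Gas5 98531_g_at shared its direction with Snhg1 and Snhg5, whereas the heart minus spleen difference of Snhg6 was -0.20 in A/J (adjusted p 0.143) and -0.08 in C57BL/6J (adjusted p 0.581).

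Time 2 was set against time 1 within each strain and tissue, with the 12 arrays of the tissue in the fit. Among the 40 tests of the 5 probe sets, 8 were called. In A/J the share of all probe sets called was 28.0% in liver, 25.7% in heart, 28.9% in spleen and 32.7% in lung. In C57BL/6J it was 52.3% in liver, 13.1% in heart, 13.5% in spleen and 11.2% in lung. The members' 8 of 40 lay within these shares, and a difference between times may be a difference between array runs. Snhg6 96156_at was lower at time 2 in all 4 tissues of A/J. The difference was -0.57 in liver (SE 0.10, adjusted p 0.00109), -0.60 in heart (SE 0.09, adjusted p 0.000547), -0.50 in spleen (SE 0.14, adjusted p 0.0213) and -0.27 in lung (SE 0.08, adjusted p 0.0213). In C57BL/6J it rose in liver, by 0.42 (SE 0.10, adjusted p 0.00346). It was -0.10 in heart (adjusted p 0.457), 0.09 in spleen (adjusted p 0.716) and -0.26 in lung (adjusted p 0.056) of C57BL/6J. Liver genes, high in A/J lungs of time 1, averaged 9.08 to 9.59 in A/J lungs at time 2 and 11.2 to 11.63 at time 1. In A/J spleens they averaged 10.46 to 11.3 at time 2 and 9.19 to 9.35 at time 1. Their part in the time differences of Snhg6 was not tested. In lung the A/J and C57BL/6J differences of Snhg6 were alike in size, on either side of the threshold. The C57BL/6J lung difference passed it without C57BL/6J lung replicate 1 of time 2 (-0.317, adjusted p 0.039) and without A/J lung replicate 3 of time 2 (adjusted p 0.0384).

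Several of these time calls were fragile. The A/J lung call was lost with array medians centred (adjusted p 0.0771) and with quantile normalization (0.0762). It was also lost without A/J lung replicate 1 (adjusted p 0.0577) or 3 (0.0781) of time 1, or replicate 3 of time 2 (0.0841). The A/J spleen call was lost without the arrays high in pancreas genes (-0.433, adjusted p 0.136), where 1 A/J spleen of time 1 is left, and without A/J spleen replicate 1 (0.0556) or 3 (0.064) of time 1, or replicate 2 of time 2 (0.0668). The liver and heart calls of Snhg6 held in every alternative tried. One of these left out the 2 hearts with uneven Gapdh and so set 1 A/J heart of time 1 against 3 of time 2.

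Gas5 98531_g_at was called between times in liver. In A/J livers it fell by 0.33 (SE 0.11, adjusted p 0.0413). That call was lost with array medians centred (adjusted p 0.06), quantile normalization (0.0657) or all 48 arrays in the fit (0.246). It was also lost without any 1 of the A/J livers of time 1 (replicates 1, 2 and 3), without A/J replicate 2 or 3 of time 2, and without C57BL/6J replicate 1 of either time, where the difference was -0.356 to -0.262 and the adjusted p 0.0509 to 0.131. In C57BL/6J livers Gas5 rose by 0.67 (SE 0.11, adjusted p 0.000505), or by 0.438 after quantile normalization (adjusted p 0.00624). In the other tissues the differences of 98531_g_at were between -0.17 and 0.35, with no call. Gas5 101885_at fell by 0.36 in C57BL/6J livers (adjusted p 0.0345), which rested on C57BL/6J replicate 3 of time 1, at 6.34. Without that array the difference was -0.151 (adjusted p 0.115), and under quantile normalization it was -0.188 (adjusted p 0.28). With array medians centred the adjusted p was 0.071. Without C57BL/6J replicate 1, 2 or 3 of time 2 it was 0.0733, 0.0641 or 0.0754. Neither 98530_at nor 161635_f_at was called by limma between times in any group, and 0 of their 8 tests each had an unadjusted p below 0.05.

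**Figure D4:**
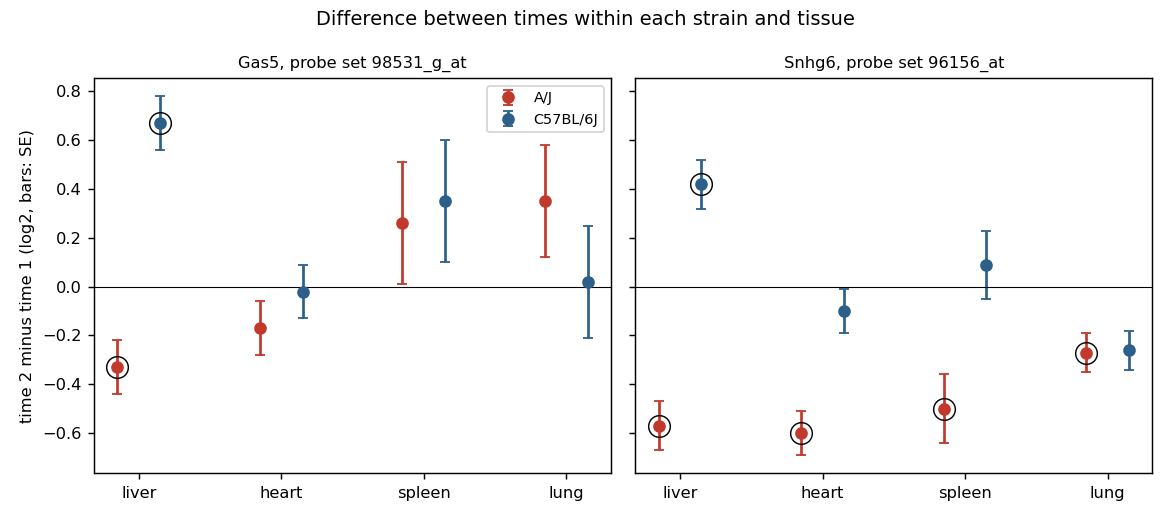
Time 2 minus time 1 (vertical axis, log2, bars show the SE of the fit) by tissue (horizontal axis) for the bright probe sets of both genes, with A/J in red left of C57BL/6J in blue and rings around values called at an adjusted p below 0.05. In liver both genes lie below 0 in A/J and above 0 in C57BL/6J.

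Strain by time was tested as the strain difference at time 2 minus the same difference at time 1. The arrays tested were also those behind the choice of the members. Since both strains shared a run at each time, a shift of a run that is the same for both strains drops out of it. A stretch of the scale in a run would not drop out. In liver the 5th to 95th percentile of the strain difference over all probe sets was -0.43 to 0.31 at time 2. At time 1 it was -0.23 to 0.28. The part of such a stretch was not tested. Among the 20 tests of the 5 probe sets, 2 were called, both in liver. Over all probe sets 4.90% were called in liver, 0.386% in heart, 0.209% in spleen and 0.177% in lung. In liver 3.90% were called negative, the direction of both members, and 1.01% positive. Gas5 98531_g_at had a strain difference of -3.51 at time 2 and -2.52 at time 1 in liver, a change of -1.0 (SE 0.16, adjusted p 0.00482). Snhg6 96156_at had -2.14 at time 2 and -1.15 at time 1, a change of -0.98 (SE 0.14, adjusted p 0.00249). For both genes, A/J livers were lower and C57BL/6J livers higher at time 2 than at time 1. Leaving out each liver array in turn kept both calls, with changes of -1.115 to -0.889 for Gas5 (adjusted p 0.00221 to 0.0174) and -1.058 to -0.892 for Snhg6 (adjusted p 0.00311 to 0.0118). Under the other alternatives Gas5 had -1.03 to -0.726 (adjusted p 0.00154 to 0.033) and Snhg6 -1.036 to -0.891 (adjusted p 5.8e-05 to 0.00459). In heart the change of Snhg6 was -0.50 (SE 0.12, adjusted p 0.117), in spleen -0.58 (SE 0.20, adjusted p 0.164) and in lung -0.01 (SE 0.12, adjusted p 0.957). Of the 4 limma tests of 96156_at, 3 had an unadjusted p below 0.05, those of liver, heart and spleen. The missing calls in heart and spleen thus do not show that its change was limited to liver. The spleen value was called when all 48 arrays entered the fit (adjusted p 0.0141), and was -0.236 (adjusted p 0.696) without the arrays high in pancreas genes, where 2 of the 4 groups hold 1 array each. In heart, spleen and lung the change of Gas5 98531_g_at was -0.15, -0.09 and 0.33, with SE of 0.15, 0.35 and 0.32. The dim probe sets and 98530_at had changes between -0.16 and 0.19 in all tissues, with no call.

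Genes that act with the members were read for the same strain contrast, over both times in the 12 arrays of a tissue. Of all 12422 probe sets, 6.83% were called in liver, 8.73% in heart, 15.2% in spleen and 7.23% in lung. The snoRNA hosts without Gas5 and Snhg6 had 24 probe sets, with 2 called lower in A/J livers, 2 higher in A/J hearts, 1 higher in A/J spleens and none in lungs, where 7 had an unadjusted p below 0.05. Their median differences were 0.024 in liver, 0.021 in heart, 0.022 in spleen and 0.061 in lung, beside 0.018, 0.004, -0.005 and -0.016 over all probe sets. Lower in A/J livers were Rpl13a, a ribosomal protein of the large subunit (-0.35, adjusted p 0.00132), and Hspa8, a constitutive heat shock chaperone (-0.54, adjusted p 0.0207). Hspa9, the mitochondrial member of that family, and Eif4g2, a translation initiation factor, were higher in A/J hearts, by 0.18 and 0.21. Snhg1 was higher in A/J spleens by 0.38 (adjusted p 0.0369), the opposite direction to Gas5.

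The protein partners of small nucleolar RNAs had 17 probe sets of 13 genes, with 2 lower in A/J livers, 1 higher in A/J hearts, 2 lower in A/J spleens and none called in lungs, where 1 had an unadjusted p below 0.05. Their medians were -0.013 in liver, -0.002 in heart, -0.04 in spleen and -0.021 in lung. Nop10 and Nhp2 are core proteins of box H/ACA particles, whereas both members host box C/D small nucleolar RNAs. Nop10 was lower in A/J livers (-0.36, adjusted p 0.00388) and spleens (-0.33, adjusted p 0.00434), and Nhp2 in livers (-0.24, adjusted p 0.0283). Gar1, a further H/ACA protein, was lower in A/J spleens (-0.26), and Ruvbl1, an assembly ATPase, higher in A/J hearts (0.28). Factors of nonsense-mediated decay had 7 probe sets of 5 genes, of which 1 was called in 1 tissue; at an unadjusted p below 0.05 there were 1 in heart, 0 in spleen and 2 in lung. That was Rbm8a, a subunit of the exon junction complex, at -0.31 in liver (adjusted p 0.0267), and the list's medians were -0.018 in liver, 0.007 in heart, -0.013 in spleen and -0.026 in lung.

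Translation genes with a terminal oligopyrimidine tract had 19 probe sets of 13 genes, with 1 lower in A/J livers, none called in hearts (2 at an unadjusted p below 0.05), and 1 higher and 1 lower in both spleens and lungs. Their medians were -0.009 in liver, 0.015 in heart, 0.00 in spleen and 0.005 in lung. The initiation factor Eif4b was lower in A/J by -0.24 in liver and -0.27 in spleen by its brighter probe set, and by -0.24 in lung by its dimmer one. Hnrnpa1, an RNA-binding protein, was higher in A/J spleens by 0.34, and Nap1l1, a histone chaperone, in lungs by 0.26. The other growth arrest specific genes had 10 probe sets of 6 genes, with 1 lower in A/J livers, and 1 higher and 1 lower in A/J lungs; at an unadjusted p below 0.05 there were 1 in heart and 2 in spleen. Gas1, a membrane protein that blocks entry into S phase, was lower in A/J livers (-0.28) and lungs (-0.26), and Pmp22, a myelin protein, higher in A/J lungs (0.34). The medians were 0.005 in liver, -0.036 in heart, -0.05 in spleen and -0.105 in lung.

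Glucocorticoid receptor and target genes had 14 probe sets of 12 genes, with 3 higher and 2 lower in A/J livers, 5 lower in hearts, 2 lower in spleens, and 1 higher and 2 lower in lungs. Their medians were -0.019 in liver, -0.145 in heart, 0.027 in spleen and -0.077 in lung. The metallothioneins Mt1 and Mt2, which bind metal ions, were higher in A/J livers (0.73 and 0.75) and lower in A/J hearts (-0.36 and -0.82). Fkbp5, a cochaperone of the receptor, was lower in A/J hearts (-0.56, adjusted p 0.00654), spleens (-0.56, adjusted p 0.0139) and lungs (-0.58, adjusted p 0.0225). Zfp36, which binds AU-rich elements, was lower in A/J livers (-0.41), hearts (-0.24) and spleens (-0.31). Ddit4, a repressor of growth signalling, was lower in A/J hearts (-0.70) and livers (-0.81). In lungs Sgk1, a kinase, was higher in A/J (0.54) and Cdkn1a, a cell cycle inhibitor, lower (-0.46). Nr3c1, the receptor itself, was higher in A/J livers by 0.26 (adjusted p 0.0289).

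Genes next to the members on chromosome 1 were read in the same way. The 20 nearest genes of Gas5 with a probe set had 24 probe sets, of which 5 of 96 tests over the 4 tissues were called, and their differences lay between -0.26 and 0.44. The direct neighbours Zbtb37 and Cenpl had no call in any tissue, nor had Serpinc1, Rabgap1l, Cacybp, Tnfsf4 or Fasl. Vamp4 was higher in A/J lungs (0.23, adjusted p 0.0418). Farther out, Mrps14 was lower in A/J livers (-0.26) and higher in A/J hearts (0.32), Fmo1 higher in A/J lungs (0.44) and Selp higher in A/J spleens (0.23). The 18 genes around Snhg6 (8 before, 10 after) had 32 probe sets, with 6 of 128 tests called and differences between -0.58 and 0.61. Cops5, a subunit of the COP9 signalosome next to Snhg6, was lower in A/J livers (-0.24), and Arfgef1 higher in A/J spleens (0.58) by 1 of its 2 probe sets, which had -0.58 in heart (adjusted p 0.0624). Mybl1, Rrs1, Oprk1, Atp6v1h, Slco5a1 and Ncoa2 were not called in any tissue. Mrpl15, a mitochondrial ribosomal protein farther out, was higher in A/J hearts by 0.61 (adjusted p 9.02e-06). Tcea1 was higher (0.28, by 1 of 3 probe sets) and Tram1 lower (-0.29, by 1 of 2) in A/J spleens, and Lypla1 was lower in A/J livers (-0.23, by 1 of 5).

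Of the 45 strain calls of list genes and neighbours, 13 held under each alternative in which the probe set was tested. These were Rpl13a, Nop10, Mt1 and Zfp36 in liver, Ruvbl1, Ddit4, Fkbp5, Mt2, Mrps14 and Mrpl15 in heart, Fkbp5 and Arfgef1 in spleen, and Fmo1 in lung. The other 32 were lost in at least 1 alternative, mostly when a single array was left out, and none turned its direction. Without the arrays high in pancreas genes 9 spleen calls were lost, in a fit with 1 array in 2 of the 4 spleen groups. The difference there was 0.34 for Snhg1 (adjusted p 0.344), -0.34 for Nop10, -0.33 for Gar1, -0.26 for Eif4b, 0.23 for Selp, 0.21 for Tcea1, 0.23 for Hnrnpa1, -0.20 for Zfp36 and -0.19 for Tram1. With all arrays the last 3 had 0.34, -0.31 and -0.29. Also lost were 4 liver calls, those of Rbm8a, Gas1, Nr3c1 and Lypla1. Without the 2 uneven hearts the heart calls of Hspa9 (0.19, adjusted p 0.0957) and Zfp36 (-0.24, adjusted p 0.0631) were lost. Without the lung with uneven Gapdh those of Cdkn1a, Sgk1 and Vamp4 in lung were lost. Of 163 tissue calls of the other hosts, 122 held under each alternative, and none turned.

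**Figure D5:**
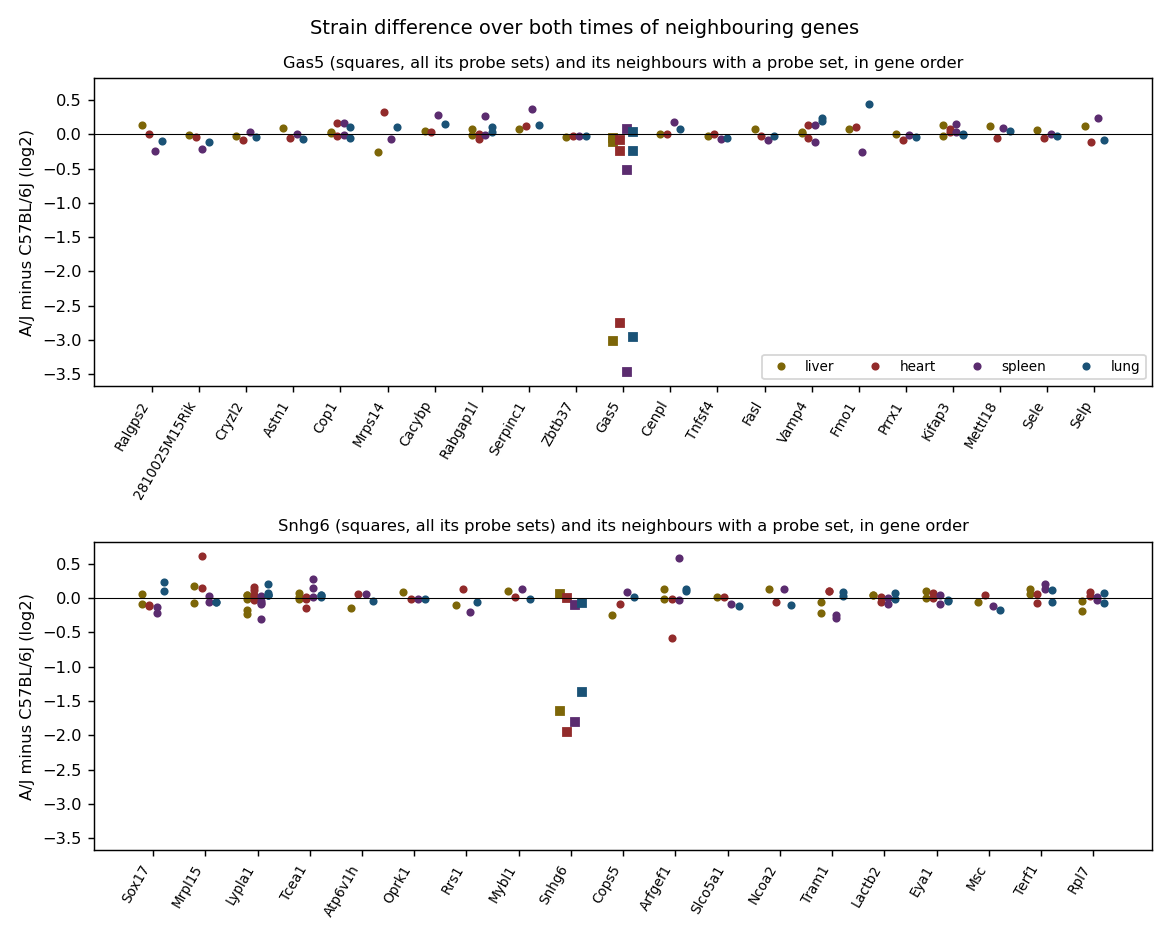
Strain difference over both times (vertical axis, A/J minus C57BL/6J, log2) of Gas5 (upper panel) and Snhg6 (lower panel), as squares for all their probe sets, and of the nearest genes with a probe set, as circles, in gene order along the chromosome (horizontal axis, not to scale), coloured by tissue. The neighbours lie between -0.26 and 0.44 around Gas5 and between -0.58 and 0.61 around Snhg6.

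Likeness of pattern was measured as Pearson's r between group means. Over the 16 groups Gas5 98531_g_at and Snhg6 96156_at had r = 0.926. These points fall into 2 strain clusters, and r over them mainly reflects that both genes were lower in A/J. Within the 8 groups of a strain r was 0.20 in A/J and 0.19 in C57BL/6J, so the order of tissues and times was not shared. The bright and the intermediate Gas5 probe sets, 98531_g_at and 98530_at, had r = 0.46 in A/J and 0.73 in C57BL/6J. These values are descriptions, and groups of a tissue or an array run are not independent.

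Over the 16 groups the probe sets most like Gas5 98531_g_at were those of Thumpd1 (0.948), Ctsc (0.937 and 0.895), Snhg6 (0.926) and Srp9 (0.889), and the most opposite Clec16a (-0.877), Ifi202b (-0.832) and Hnrnpc (-0.787). Most like Snhg6 96156_at were Gas5 (0.926), Usp38 (0.923), Thumpd1 (0.883), Mir686 (0.865) and Ctsc (0.833), and most opposite Ifi202b (-0.888), Gbp2b (-0.798) and Clec16a (-0.774). Within A/J the closest to Gas5 were Riok3 (0.972) and Rpl7l1 (0.958), and to Snhg6 Ppat (0.964) and Cyct (0.963). Within C57BL/6J they were Gm2a (0.985) and St6gal1 (0.983) for Gas5, and Zpr1 and Psmb1 (0.954 each) for Snhg6. For Gas5 98530_at the closest over the 16 groups were Klra7 (0.918), Ifi209 (0.9) and Igha (0.894), an immunoglobulin heavy chain gene. These are the first of 10833 named probe sets ranked by r, so their values are high by selection.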

How the data were processed

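The authors deposited log2 values, 1 column per MG-U74Av2 array; how they normalized them was not given in the sources used here. Values were used as deposited, and array medians lay between 8.863 and 9.01. After 66 control probe sets were left out, 12422 remained, with no filter on low values. The platform's probe table named the genes and gave 1 symbol for 10833 probe sets, several for 396 and none listed for 1193. The members and the gene lists were chosen with earlier results of these data known. Array signals near background are bounds on low levels, and the number of arrays limits the precision.

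Tests used limma 3.58.1 in R 4.3.3 (lmFit and eBayes) with Benjamini-Hochberg adjustment over all 12422 probe sets of a contrast and a threshold of 0.05. Time, strain by time and the strain contrast of genes that are no members were fitted on the 12 arrays of a tissue with 4 group means, and tissue pairs on the 24 arrays of time 2. The scripts were tested on simulated data. Named were all member probe sets, up to 3 called probe sets per list and tissue with the smallest p, the 4 nearest neighbours per side, and the probe sets most like or opposite to a member; the other called neighbours, and Nr3c1, Ddit4, Fkbp5 and Zfp36 in tissues where they ranked below the first 3, and the tissue values of Snhg1, Snhg5 and Hspa9, were named after their values were seen. Alternatives were centring, quantile normalization, a dim probe set filter, trend and robust eBayes, all 48 arrays, a replicate block and each array left out. Chosen after seeing the data were leaving out the arrays high in pancreas genes, or the 2 hearts with uneven Gapdh. The lung with uneven Gapdh was left out only in the alternatives that drop a single array.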

Additional observations from a re-analysis of the deposited data

Results flagged for a closer look

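Both bright probe sets were picked out because their strain difference in liver departed between times by the test of that change itself. Gas5 98531_g_at had a change of -1.0 (strain difference at time 2 minus that at time 1), and Snhg6 96156_at a change of -0.98, both on the log2 scale. The labels do not say what separates the times.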

How the results depend on the processing

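Of 29 single member results with alternatives, none turned its direction and 18 had the same call throughout; the other member tests, which were not called, were not followed in this way. The 8 calls between times became 5 with array medians centred and 5 under quantile normalization, and 6 to 9 with each array left out. With each array left out the other counts were 2 to 2 for strain by time, 14 to 19 for tissue pairs and 38 to 52 for the gene lists (45 in all). The mean strain difference over tissues was -3.05 for Gas5 98531_g_at (-3.08 to -3.012) and -1.693 for Snhg6 96156_at (-1.712 to -1.669). Arrays of a strain were correlated after group means were removed. Between times of a tissue, pairs with the same replicate number had -0.378 to 0.464, and 8 of 24 exceeded 0.1. Pairs with other numbers had -0.416 to 0.341, and 9 of 48 exceeded 0.1. Between tissues, 6 of 36 same-number pairs exceeded 0.1 at time 1, against 5 of 72 others. At time 2 these were 8 of 36 and 18 of 72. Whether a number marks a shared mouse cannot be told from these values. With a replicate block the counts were 9 between times, 2 for strain by time, 16 for tissue pairs and 51 for the lists. With 3 arrays a group, small changes, and changes of the 2 dim probe sets near background, could be missed. The cause of the lost calls was not tested.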
